A study of Rattus norvegicus with 6 samples.

Results

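The miR-200 family consists of microRNAs (miRNAs, short RNAs that pair with messenger RNAs and lower their output) from 2 gene clusters, miR-200c with miR-141, and miR-200b with miR-200a and miR-429. Its members were taken by name from single-colour Agilent arrays, as the spots whose miRNA name was rno-miR-141-3p, rno-miR-141-5p, rno-miR-200c-3p, rno-miR-200c-5p, rno-miR-200a-3p, rno-miR-200b-3p or rno-miR-429. These are 7 of the 758 rat miRNAs on the array, with 14 of its 1806 probes, and each of the 14 probes had 8 spots per array. RNA came from the left ventricle of male Wistar rats that had eaten a high-fat diet (3 samples) or normal chow (3 samples) for 20 weeks, with 1 array per sample. The age of the rats, the make-up of the diets and whether each sample came from an animal of its own were not given in the sources used here, so the p-values reflect only how far these samples spread, and that spread may be technical. Whole myocardium was used, and in such samples fewer cells of a type and less RNA per cell cannot be told apart.

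The 75th percentile of detected signal was 415 to 561 on high-fat and 359 to 424 on chow arrays, and 414 to 472 miRNAs on high-fat and 391 to 418 on chow arrays were well above background. Both ranges overlapped between the diets (2-sided exact permutation p = 0.2 each). The 3 high-fat arrays shared slide 1 with chow replicate 1, while the other 2 chow arrays were on slide 2. The stringency ratio, which the scanner software derives from spike-in controls, was 0.974 to 1.94 on high-fat and 3.44 to 4.19 on chow arrays (2-sided exact permutation p = 0.1, the smallest possible with 3 against 3), so that a hybridisation measure also divided the arrays by diet, chow replicate 1 with the other chow arrays. Negative control spots divided the arrays by diet as well. Their spread by the software was 5.59 to 6.50 on high-fat and 7.01 to 8.09 on chow arrays. Their SD was 1.86 to 2.39 on high-fat and 2.65 to 3.09 on chow arrays. Their mean was -1.85 to -1.38 on high-fat and -1.34 to -0.607 on chow arrays. Each of these gave a 2-sided exact permutation p = 0.1. The part of all these measures in the results that follow, detection included, was not tested. Heart muscle markers (miR-1-3p, miR-133a-3p, miR-133a-5p, miR-133b-3p, miR-208a-3p, miR-208b-3p and miR-499-5p) were well above background on all 6 arrays, 7 of 7.

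In epithelial cells the miR-200 family is known for holding down the transcription factors Zeb1 and Zeb2, which in turn repress the miRNA genes, a loop that keeps cells epithelial. Loss of the family is a textbook feature of the passage from epithelial to mesenchymal cells, and muscle, fibroblasts and endothelium are not regarded as its main sites of expression. A miRNA hairpin gives a 5p and a 3p strand, of which the more abundant is called the guide and the other the passenger. In this family the 3p strand is the usual guide. The bases after the first, called the seed, set most of the pairing with targets.

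Mature sequences were matched in the RefSeq table used here for 4 of the 7 members, all of the miR-200c and miR-141 cluster, on rat chromosome 4 in build GRCr8, minus strand. They are shown because the diet comparison turned on the 3p strands and because their probes had to separate closely related RNAs. Capitals mark the seed, bases 2 to 8 from the 5′ end.
rno-miR-141-3p, chr4:159209540-159209561: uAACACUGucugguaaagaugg
rno-miR-200c-3p, chr4:159209969-159209989: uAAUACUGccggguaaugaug
rno-miR-141-5p, chr4:159209584-159209605: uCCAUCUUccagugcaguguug
rno-miR-200c-5p, chr4:159210009-159210029: cGUCUUACccagcaguguuug
The 3p strands of miR-141 and miR-200c were identical at 17 of 21 bases, and 1 of their 4 differences, C4U, lay in the seed, so that they do not share a seed. The other differences were U9C, U11G and A17U, each with the miR-141-3p base first and positions counted from the 5′ end. The 5p strands were identical at 8 of 21 positions. The hairpins, with both mature strands in capitals, show where the strands lie.
Mir200c hairpin, chr4:159209965-159210033: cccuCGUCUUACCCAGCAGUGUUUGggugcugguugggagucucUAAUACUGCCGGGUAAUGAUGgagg
Mir141 hairpin, chr4:159209525-159209618: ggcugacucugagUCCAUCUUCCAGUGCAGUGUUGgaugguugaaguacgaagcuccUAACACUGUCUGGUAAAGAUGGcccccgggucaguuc
Both genes lie between Phb2 and Ptpn6 in the RefSeq annotation, and no protein-coding gene separates them.

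Detection differed between the clusters, between strands and, within chow, between arrays. A spot is well above background by a flag of the scanner software, and a probe was called so when at least 50% of its spots, without outlier spots, were. By the probe that stands for each miRNA, 5 of the 7 members were well above background on at least 1 array and 2, miR-141-5p and miR-429, on 0 of 6. For miR-141-3p all 6 arrays qualified, at 96 of 96 spots over both of its probes. miR-200c-3p was so on 3 of 3 high-fat arrays, at 16 of 16 spots each, and on 1 of 3 chow arrays, where 10, 4 and 0 of 16 spots on chow replicates 1, 2 and 3 carried the flag. In the other cluster, miR-200b-3p and miR-200a-3p reached that level on 0 of 3 high-fat and 1 of 3 chow arrays. On the high-fat arrays the clusters thus differed: the 3p strands of miR-141 and miR-200c were seen on every one, and those of miR-200a and miR-200b on none. On chow arrays the 3p strands of miR-200a and miR-200b were seen on replicate 1 alone, so their detection did not separate the diets.

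**Figure D1:**
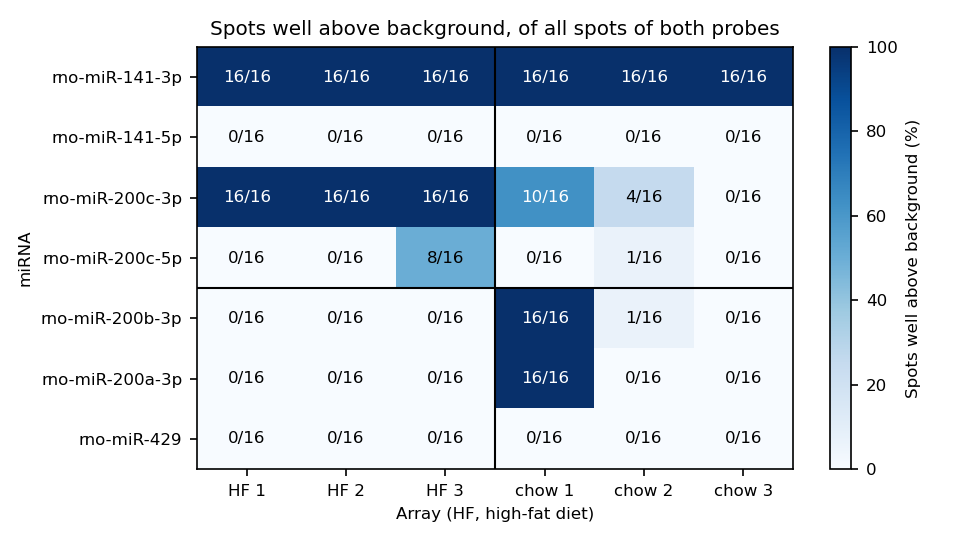
Spots well above background for each miRNA (rows; the line separates the miR-200c and miR-141 cluster above from the miR-200b, miR-200a and miR-429 cluster below) on each array (columns; HF, high-fat diet), as counts of the 16 spots of both probes and as a shade in percent. miR-141-3p filled all arrays, and miR-200b-3p and miR-200a-3p filled chow replicate 1 alone.

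miR-141-3p was higher on the high-fat diet, by 3.26-fold. Its brighter probe read 142, 192 and 197 intensity units on high-fat replicates 1 to 3, against 60.7, 36.3 and 32.7 on chow replicates 1 to 3. The high-fat arrays all lay above the chow arrays, and of the chow arrays replicate 1 was the highest. On a log2 scale where 0 is the 75th percentile of an array's detected probes, high-fat arrays averaged -1.51 ± 0.037, against -3.21 ± 0.56 for chow arrays (SD, n = 3 each). On the scaled log2 scale the difference, 1.71 ± 0.25 SE, was the largest in size of all 425 miRNAs tested and passed the threshold of 0.05 (limma, adjusted p = 0.0423). Across those 425 miRNAs 0.235% were called higher, which is this miRNA alone, and 0.235% lower, 0.471% in either direction.

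The spread of miR-141-3p was unequal between the diets. The 3 high-fat arrays lay within 0.074 of each other on the log2 scale, while the chow arrays spanned 0.98. Chow replicate 1, which shared a slide with the high-fat arrays, stood 0.97 above the mean of the other 2 chow arrays and 1.06 below the high-fat mean. Within slide 1 the difference was therefore 1.06 ± 0.13 SE against 1 chow array (limma, adjusted p = 0.199), and with slide as a block it was 1.06 ± 0.13 SE (adjusted p = 0.0605), so the call ended in both; the lone chow array of slide 1 is assumed to vary like the high-fat arrays. Without chow replicate 1 the difference was 2.03 ± 0.10 SE (limma, adjusted p = 0.000291). Diet and slide then coincided, so in that fit they cannot be told apart. The call was lost without each other array, with adjusted p-values of 0.169 and 0.183 without chow replicate 2 or 3 and 0.116, 0.281 and 0.181 without high-fat replicate 1, 2 or 3.

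Both probes of miR-141-3p gave nearly the same difference. The dimmer probe read 73.5, 101 and 99.4 on high-fat replicates 1 to 3, against 34.3, 19.5 and 17.9 on chow replicates 1 to 3, a log2 difference of 1.61 ± 0.27 SE against 1.71 ± 0.25 SE for the brighter. Fitted across the 865 probes tested in place of 425 miRNAs, neither probe passed (limma, adjusted p = 0.0615 and 0.0554), and 0% of probes were called higher.

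**Figure D2:**
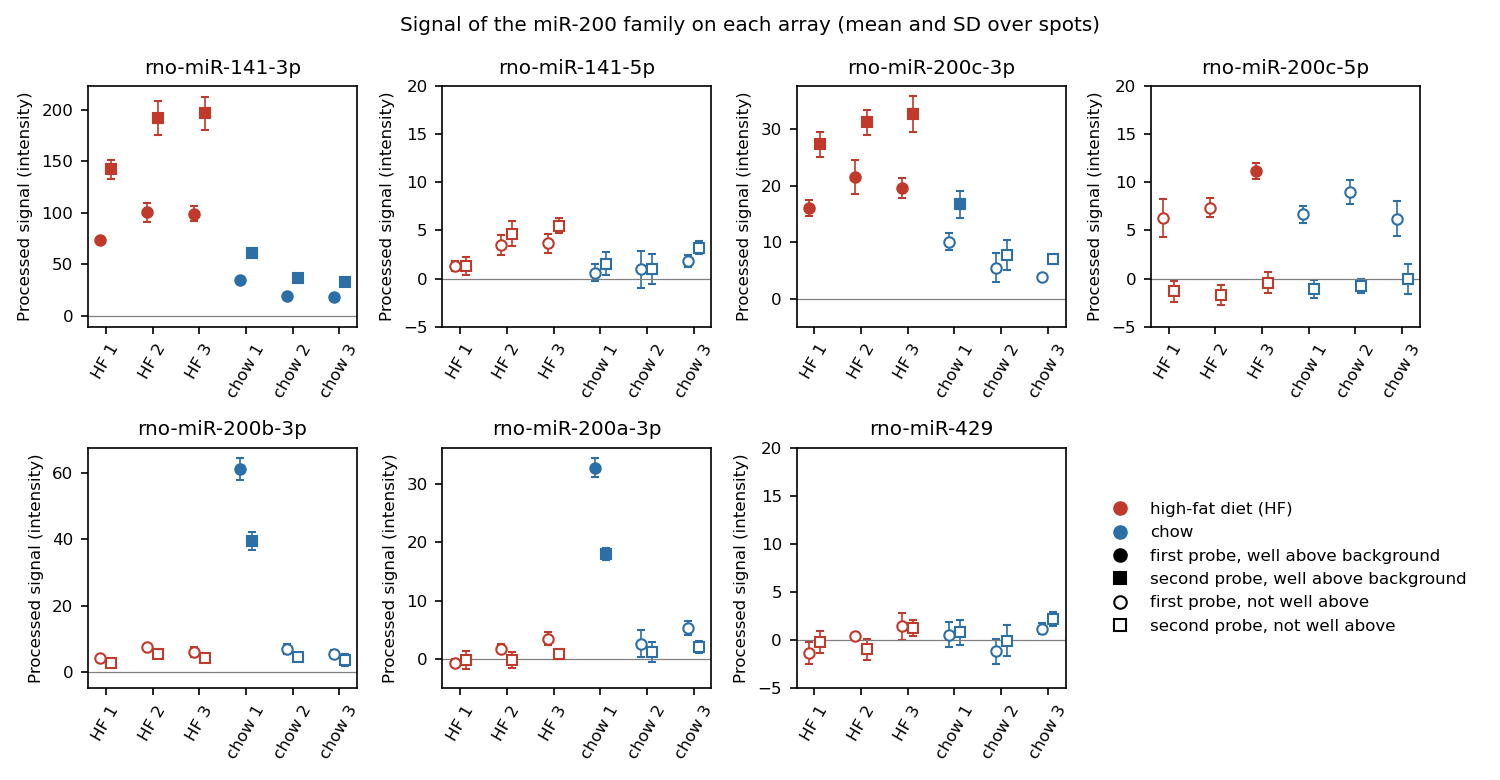
Processed signal (intensity, mean and SD over the outlier-free spots of a probe) on each array, high-fat diet (HF, red) left of chow (blue), for each miRNA, with circles and squares for its probes and open symbols where a probe was not well above background. For miR-141-3p all red points of a probe stand above all blue ones, and miR-200b-3p and miR-200a-3p stand out on chow replicate 1 only.

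**Figure D3:**
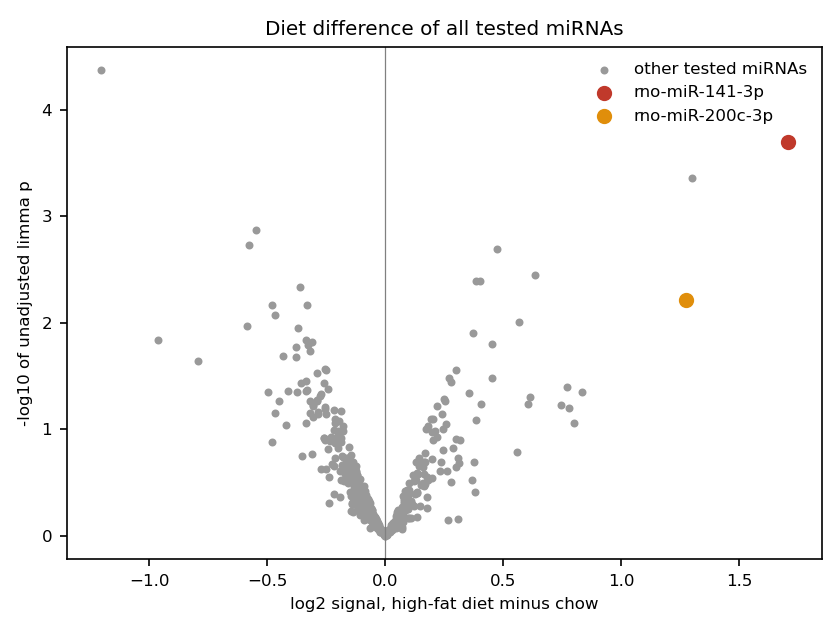
Unadjusted limma p (vertical axis, as -log10) against the log2 difference, high-fat diet minus chow (horizontal axis), for the 425 miRNAs tested, each a point. miR-141-3p has the largest difference, 1.71, and miR-200c-3p lies at 1.27, a value that rests on 2 chow arrays where it was not well above background.

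miR-200c-3p, from the neighbouring gene, was also higher on every high-fat array than on any chow array, but did not pass the test. Its brighter probe read 27.3, 31.2 and 32.6 on high-fat replicates 1 to 3, against 16.7, 7.76 and 7.05 on chow replicates 1 to 3. Chow replicate 1 was again the highest of the chow arrays and the only one of them on which the probe was well above background. Scaled log2 values averaged -4.04 ± 0.099 for high-fat arrays, against -5.31 ± 0.77 for chow arrays (SD, n = 3 each), a difference of 1.27 ± 0.34 SE (limma, adjusted p = 0.224). Chow replicates 2 and 3 lay at -5.77 and -5.74 and were not well above background, so the size of this difference rests on chow readings that were not told from background on 2 of 3 arrays. The miRNA entered the test through its 3 high-fat arrays and 1 chow array, so the filter favoured it where it was high. Of all 425 miRNAs, 6.59% had their high-fat arrays all above their chow arrays, and both tested members were among them.

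The second probe of miR-200c-3p was dimmer and was not well above background on any chow array. It read 16.0, 21.5 and 19.6 on high-fat replicates 1 to 3, against 10.0, 5.49 and 3.86 on chow replicates 1 to 3. With the chow arrays set to the lowest signal read as well above background, which is not a strict detection limit, its high-fat signal was 1.50-fold higher. The fitted log2 difference was 0.88 ± 0.19 SE (limma, adjusted p = 0.137 across probes). Within slide 1 the brighter probe differed by 0.39 ± 0.14 SE (limma, adjusted p = 0.377). Without chow replicate 1 it differed by 1.72 ± 0.11 SE and passed (limma, adjusted p = 0.000746), but diet and slide then coincided and cannot be told apart. With no scaling between arrays it differed by 1.39 and passed as well (limma, adjusted p = 0.00158), where the median over all miRNAs was 0.32. With the normexp background correction and the 75th percentile it differed by 0.058 (limma, adjusted p = 0.734), where the median of all miRNAs was -0.14.

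The diet difference of miR-141-3p was set against that of miR-200c-3p within each array. Subtracting the log2 value of miR-200c-3p from that of miR-141-3p gave 2.53 ± 0.13 for high-fat arrays, against 2.10 ± 0.20 for chow arrays (SD, n = 3 each). On 2 of the 3 chow arrays the subtracted miR-200c-3p reading was not well above background, so no difference in effect between the miRNAs is read from these values.

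The passenger strands gave little signal on either diet. miR-141-5p, from the hairpin of the most changed member, read 1.29 to 5.51 over both probes on high-fat and 0.618 to 3.22 on chow arrays, and 0 of 96 spots were well above background. Its probes were thus dim on the same high-fat arrays on which all miR-141-3p spots were detected. miR-200c-5p was well above background on 1 array, high-fat replicate 3, where 1 of its probes read 11.2 with 8 of 8 spots flagged, against 6.27 and 7.35 on high-fat replicates 1 and 2 and 6.67, 9.00 and 6.21 on chow replicates 1 to 3. Its second probe stayed between -1.71 and -0.0848 on all 6 arrays, so the probes disagreed. After scaling the first probe was highest on chow replicate 2, at -5.56 on the log2 scale, against -5.65 on high-fat replicate 3. High-fat replicate 3 had the most detected miRNAs of all arrays, and 15 miRNAs, miR-200c-5p among them, were well above background there and on no other array. Neither 5p strand was tested.

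Of the members from the miR-200b, miR-200a and miR-429 cluster, miR-200b-3p and miR-200a-3p were seen on a single chow array only. miR-200b-3p read 4.28, 7.61 and 6.05 with its brighter probe on high-fat replicates 1 to 3, against 61.2, 6.95 and 5.30 on chow replicates 1 to 3. miR-200a-3p read -0.677, 1.78 and 3.53 on high-fat replicates 1 to 3, against 32.8, 2.66 and 5.32 on chow replicates 1 to 3. On chow replicate 1 all 16 spots of each miRNA were well above background, while chow replicates 2 and 3 lay near the high-fat arrays. The second probes showed the same array alone, at 39.4 for miR-200b-3p and 18.1 for miR-200a-3p on chow replicate 1, where their other readings were 5.33 and 2.03 at most.

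With 1 of 3 chow arrays measured, neither of these miRNAs was tested. Chow replicates 2 and 3 were not well above background, so no lower bound is given for their mean chow signal. Chow replicate 1 alone stood 9.02-fold (miR-200b-3p) and 4.84-fold (miR-200a-3p) above the high-fat mean on the scaled log2 scale. For this, each high-fat array was set to its lowest signal read as well above background, or to the floor where that was higher. That signal is not a strict detection limit, since a probe can read above it without being well above background. These values rest on 1 chow array. miR-429, the third miRNA of the cluster, read between -1.34 and 2.19 on all arrays, chow replicate 1 included, and 0 of 96 spots were well above background. The cluster's members were thus not detected together on the array that showed them.

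Detection on chow replicate 1 alone was rare across the array, as it was for most other single arrays. Of all 758 miRNAs, 3 were well above background there and nowhere else, namely miR-200b-3p, miR-200a-3p and miR-135b-5p, the last named after its values were seen. The same count was 1 and 0 for chow replicates 2 and 3, and 0, 3 and 15 for high-fat replicates 1 to 3. miR-135b-5p read 13.3 on chow replicate 1 and 1.48 at most on the other 5 arrays, high-fat and chow. Chow replicate 1 was the dimmest array, with a 75th percentile of 359, and its lowest signal read as well above background, 10.6, was the highest of the 6. It was also the chow array on which miR-141-3p and miR-200c-3p were highest. The 4 members with a 3p signal on chow replicate 1 therefore all stood above the other chow arrays there. Only miR-141-3p and miR-200c-3p were higher still on the high-fat arrays. Whether the miR-141-3p and miR-200c-3p probes also bind RNA of the other cluster was not tested, so the 4 may not be separate readings. No mature sequence of that cluster was matched here for such a comparison. The differences within slide 1 rest on this chow array and carry the same limit.

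The 5p strands of miR-200a and miR-200b, which are outside the 7 members, were dim on all arrays, and their order depended on the scaling. miR-200b-5p, from the same hairpin as miR-200b-3p, had 4 probes, which disagreed on detection. Its brightest probe was well above background on 3 of 3 high-fat arrays and on 1 of 3 chow arrays, replicate 2. That probe read 11.5, 15.1 and 16.5 on high-fat replicates 1 to 3, against 11.7, 13.0 and 8.05 on chow replicates 1 to 3. The scaled log2 difference was 0.038 ± 0.16 SE (limma, adjusted p = 0.940). On chow replicate 1 that probe was not well above background, while 2 of the other 3 were, at 10.9 and 12.1, where high-fat replicate 3 read 14.9 and 14.8. miR-200a-5p was well above background on high-fat replicate 3 only, at 9.54, and read 7.88 on chow replicate 1. Unscaled, these 3 miR-200b-5p probes read highest on high-fat replicate 3, while on the scaled log2 scale they were highest on chow replicate 1 (-4.94, -5.05 and -4.89, against -5.09, -5.23 and -5.24 on high-fat replicate 3). miR-200a-5p, too, was highest on chow replicate 1 after scaling, at -5.51, against the floor of -5.82 on high-fat replicate 3.

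No other miRNA on a list known from epithelia passed the test between the diets. Of 10 on the list, 6 were tested, 0 rose and 0 fell, beside 0.471% called in either direction over all 425. With so small a share, 0 of 6 does not set the list apart. The median log2 difference of the 6 was -0.014, beside -0.045 over all 425. The log2 difference was -0.053 ± 0.13 SE for miR-203a-3p, known from skin, and 0.31 ± 0.75 for miR-205, of stratified epithelia. It was -0.11 ± 0.21 for miR-96-5p and -0.24 ± 0.15 for miR-182, which shares a gene cluster with miR-96 (limma, adjusted p from 0.577 to 0.908 for these 4). miR-205 and miR-182 were each well above background on only 2 of 3 high-fat and 1 of 3 chow arrays, which limits their differences and the list's median. The other 4, miR-203b-3p, miR-375-3p of pancreatic islet and gut endocrine cells, miR-183-5p and miR-215, were well above background on 0 of 6 arrays. The list's summed scaled signal was 1.15 to 1.31 on high-fat and 1.18 to 1.33 on chow arrays, and 1.18 on chow replicate 1. Chow replicates 1 and 3 were nearly alike in this sum, at 1.18 and 1.19, and most of it came from miR-203a-3p, miR-192-5p and miR-194-5p. The dim miR-96-5p was highest of all arrays on chow replicate 1, at a scaled log2 of -4.04, against -4.77 to -4.40 on high-fat arrays and -4.85 to -4.55 on the other chow arrays.

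**Figure D4:**
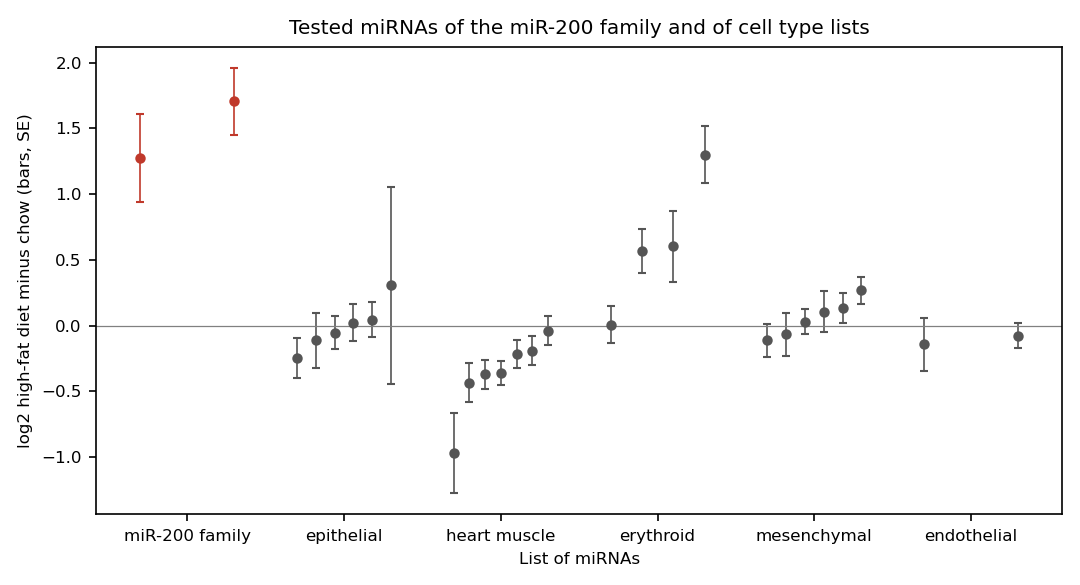
Log2 difference, high-fat diet minus chow, with its SE, for tested miRNAs (points). Red marks the tested members of the miR-200 family taken by name, miR-141-3p and miR-200c-3p, and grey the lists for other cell types. Both of these members lie above the epithelial list, whose differences run from -0.24 to 0.31. miR-200c-3p was well above background on only 1 of 3 chow arrays, which limits its difference. miR-200b-5p, tested but outside the named members, differed by 0.038, within the range of the epithelial list.

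In each of the other lists, too, 0 miRNAs passed, beside 0.471% called over all 425. Among these lists, the median difference was highest for erythroid miRNAs. All 4 were tested, 0 passed the threshold and the median of their log2 differences was 0.59, and their summed scaled signal was 15.3 to 21.5 on high-fat against 10.6 to 12.8 on chow arrays. miR-144-3p, an erythroid miRNA, had the second largest difference of all miRNAs tested, 1.30 ± 0.22 SE (limma, adjusted p = 0.0612). On chow replicate 1 its scaled log2 signal of 0.03 was the lowest of all arrays. The rest of the list went the other way. Of the chow arrays, miR-451-5p (3.33), miR-144-5p (-3.90) and miR-486 (0.72) were highest on replicate 1, as miR-141-3p was. The other erythroid miRNAs, miR-451-5p, miR-144-5p and miR-486, differed by 0.57 ± 0.17, 0.61 ± 0.27 and 0.0076 ± 0.14 SE. Heart muscle miRNAs had a median difference of -0.36 over 7, with 0 past the threshold, led in p by miR-133a-5p (-0.36), miR-133a-3p (-0.37), miR-208b-3p (-0.97) and miR-133b-3p (-0.43). Their summed scaled signal was 325 to 413 on high-fat and 441 to 467 on chow arrays, and 467 on chow replicate 1. Mesenchymal miRNAs had a median of 0.068 over 6, led in p by miR-21-5p (0.27), miR-199a-5p (0.14), miR-199a-3p (-0.11) and miR-214-3p (0.11), and the endothelial miR-126a-3p and miR-126a-5p differed by -0.076 and -0.14, with 0 past the threshold in either list. The part of blood or of other cells in the rise of miR-141-3p was not tested.

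The miRNAs whose signals ran most like that of miR-141-3p over the 6 arrays were miR-25-3p (Pearson r = 0.973), miR-200c-3p (0.966), miR-532-3p (0.926), miR-451-5p (0.866) and miR-362-5p (0.844). For miR-200c-3p they were miR-532-3p (0.989), miR-141-3p (0.966), miR-25-3p (0.925), miR-582-3p (0.808) and miR-451-5p (0.803). These correlations are descriptions over 6 arrays of 2 diets, whose points share the scaling of each array and the diet difference. Of the miRNAs that resembled either member, the other family member had the largest difference, and miR-25-3p differed between the diets by 0.074 and miR-532-3p by 0.24 on the log2 scale. Each member of the pair thus ranked second in likeness to the other.

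The direction of both tested members, read by their brighter probes or by the alternative itself, held under every processing that gave a value. For miR-141-3p the log2 difference ran from 0.91 to 2.07 over 20 alternatives that kept all arrays or a slide, and it passed in 11 of them. For miR-200c-3p it ran from 0.058 to 1.91 over 18, and it passed in 1.

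**Figure D5:**
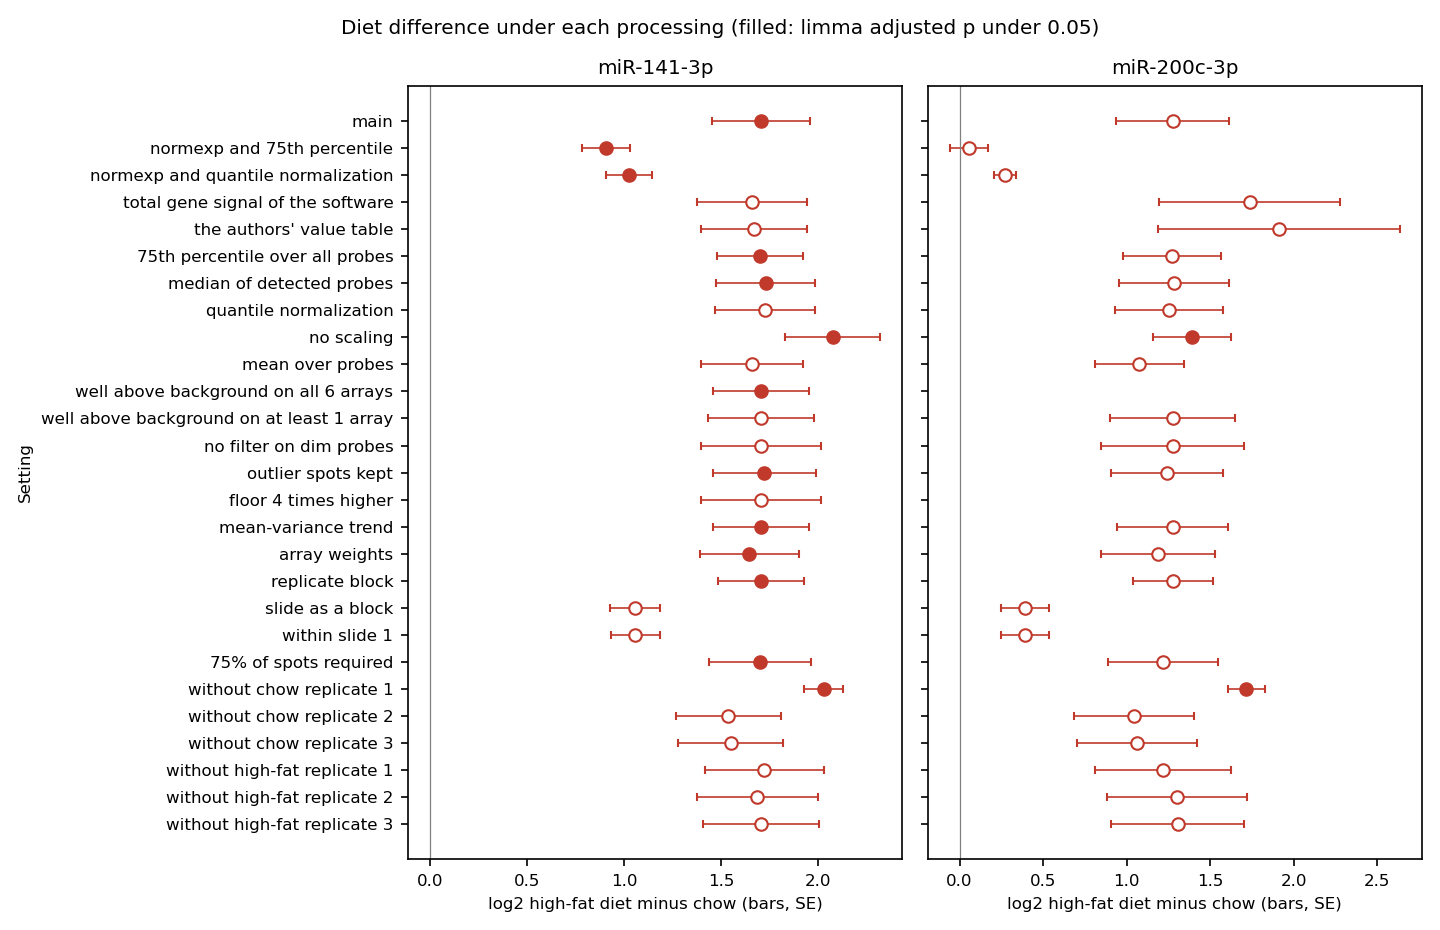
Log2 difference, high-fat diet minus chow, with its SE, of miR-141-3p (left) and miR-200c-3p (right) under the processing used here (main) and each alternative (rows), with filled points where the limma adjusted p was under 0.05. The points of miR-141-3p lie between 0.91 and 2.07 and those of miR-200c-3p between 0.058 and 1.91, and rows with no point gave no value for miR-200c-3p.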

How the data were processed

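Per the labels, the miRNA in total RNA carried Cy3 and each sample went on an array of its own. The deposited files hold intensity values per spot from Agilent Feature Extraction 11.0.1.1 (version per the submitters' processing notes), background-subtracted and detrended per array, with no scaling between arrays, and 0 or 1 flags. The authors' deposited value table holds log2 values that rank like the software's total signal and share a column median of 3.54, while their minima differ. How the columns were normalised was not inferred from these values. The exact scale is not given in the sources used here, and the table served as an alternative.

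Outlier spots (9.07% to 9.42% per array) were left out and spots averaged per probe; no spot was saturated. Signals were scaled to each array's 75th percentile over the 757 probes that all arrays detected, floored at the 1st percentile of detected signals (log2 of -5.82), and log2 was taken. The brightest probe stood for a miRNA, which was tested if detected on 3 or more of 6 arrays. The test was limma 3.58.1 under R 4.3.3 (lmFit, eBayes, Benjamini-Hochberg over 425 miRNAs), after a test on simulated data. With 3 arrays a diet, their number limits the precision. All 7 members are named, with the 5 miRNAs most correlated with each tested member and, from each list, those past the threshold and the 4 with the smallest unadjusted p. Alternatives changed the background correction, scaling, filter, floor, variance model, slide, replicate block and arrays used. Sequences are RefSeq's, build GRCr8. Members and lists were chosen with earlier results of these data known. The planned mean signal was replaced by the median signal in the normexp alternative.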

Additional observations from a re-analysis of the deposited data

How the results depend on the processing

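The call of miR-141-3p was lost, with log2 differences near the 1.71 reported, with the software's total signal (1.66), the authors' value table (1.67), quantile normalisation (1.73), the mean over probes (1.66), a detection filter of 1 array (1.71), no filter (1.71) and a floor 4 times higher (1.71). With slide as a block or within slide 1 it was 1.06 and not called. Leaving out each array gave 1.54 to 2.03 for miR-141-3p and 1.04 to 1.72 for miR-200c-3p. The latter was called without chow replicate 1 (1.72), where diet and slide coincided, and with no scaling (1.39). The diet difference of miR-141-3p minus that of miR-200c-3p ran from 0.31 to 0.51. Against 2 miRNAs called by limma, 8 were called with normexp and the 75th percentile, 5 with no scaling, 4 with a variance trend and 1 with the mean over probes. 0 were called, with 39 to 54 at an unadjusted p under 0.05, with the authors' table, quantile normalisation, the filter of 1 array, no filter, the higher floor, slide as a block and within slide 1. Without single arrays 0 to 3 were called, with 26 to 63 at an unadjusted p under 0.05. The dimmer probe of miR-200c-3p reversed with normexp and the 75th percentile (-0.057). Fits of single probes were chosen after seeing the data.

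miR-200c-3p gave no value when detection on all 6 arrays was required or with the higher floor, which all its arrays fell under, and the same floor left no comparison with miR-141-3p. The replicate number as a block (miR-141-3p 1.71, limma adjusted p = 0.0184; miR-200c-3p 1.27, adjusted p = 0.104) changed neither call, and 3 miRNAs were called. Deviations of same-numbered samples correlated at 0.22, -0.0066 and 0.057, so the numbers were not taken to pair samples, and not every sample correlated best with its own number. Detection of 6 members was the same at 25% or 75% of spots as at 50%, and miR-200c-3p was detected on 4 or 5 arrays. Low signal over background limits every statement on miR-200c-3p, the 5p strands and miR-429.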

Other observations

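2 miRNA genes overlap family genes in the RefSeq annotation. rno-miR-3575, whose gene overlaps that of miR-200c, was well above background on 1 high-fat array, replicate 3, and on 0 chow arrays. rno-miR-3548, whose gene overlaps that of miR-200a, was so on 0 arrays of either diet, chow replicate 1 included.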
